A study of Mus musculus with 4 samples.

Results

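Small nucleolar RNAs (snoRNAs), the related small Cajal body RNAs (scaRNAs) and their non-coding host genes were followed in mouse T follicular helper (Tfh) cells and in activated T cells without the Tfh surface markers (non-Tfh). The genes were chosen by name and by depth: a symbol that starts with Snora, Snord, Scarna or Snhg and a number, or Gas5, and raw counts that sum to at least 10 over the 4 libraries. This gave 39 of the 159 genes with such a name, among 39179 gene identifiers in the files. They were 14 H/ACA box snoRNAs (Snora genes), 10 C/D box snoRNAs (Snord genes), 6 scaRNAs (Scarna genes) and 9 host genes (8 Snhg genes and Gas5). Of the other named genes, 28 held 1 to 9 counts and 92 held none. Just inside the limit were Snord16a with 10 counts, Snora23 with 11 and Snora16a with 12, and just outside it were Scarna9, Snora75 and Scarna17 with 9 each.

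Both groups were made from OT-II T cells, which carry a transgenic receptor for ovalbumin and the Thy-1.1 mark, after transfer into C57BL/6 recipients that were immunised under the skin with ovalbumin coupled to nitrophenol. The transferred cells were taken on day 8 from inguinal lymph nodes, which were pooled, and sorted. Tfh cells were CD44hi CXCR5+ PD-1+, and non-Tfh cells were CXCR5- PD-1-. Each group had 2 libraries, numbered T32 and T53 in both. The labels do not say what the numbers mark or whether they stand for separate animals, so the spread behind each p-value is that between these samples only and may be technical.

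SnoRNAs are short stable RNAs that guide enzymes to ribosomal RNA in the nucleolus. C/D box snoRNAs guide ribose methylation by fibrillarin, and H/ACA box snoRNAs guide pseudouridylation by dyskerin, while a few of both kinds are needed for cutting the ribosomal RNA precursor. ScaRNAs do the same for spliceosomal small nuclear RNAs in Cajal bodies. Most are released from introns of a host gene, either a gene for a ribosomal or other protein or a non-coding Snhg gene, whose spliced transcript is often degraded quickly by nonsense-mediated decay. Ribosome production, and with it snoRNA biology, is raised when T cells grow and divide.

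The boxes that define both classes were searched in the annotated sequences, and those of a few members are shown. Snord49b (chr11:62603079-62603150, plus strand) is a C/D box snoRNA, with the C box letters TGATGA and the D box letters CTGA in capitals. Snora7a (chr6:115807975-115808114, minus strand) had the largest fold between library numbers among members with more than 3 counts in both libraries, and its ACA near the 3′ end is in capitals. All sequences are DNA letters of the transcribed strand in GRCm38, 5′ to 3′, from the GENCODE M21 transcripts.
Snord49b: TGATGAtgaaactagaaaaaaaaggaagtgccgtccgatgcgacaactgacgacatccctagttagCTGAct
Snora7a: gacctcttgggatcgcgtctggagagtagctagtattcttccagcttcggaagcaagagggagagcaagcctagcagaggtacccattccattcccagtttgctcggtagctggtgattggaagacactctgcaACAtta

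TGATGA was searched in the first 30 bases and CTGA in the last 20, on the transcribed strand only. The C box letters were found in 8 of 10 C/D members and the D box letters in 10 of 10, with both in 8. Both occurred in 0.165% of 21852 windows of 102 bases from protein-coding transcripts and in 20.3% of 1558 annotated snoRNA and scaRNA transcripts. ACA lay in the last 8 bases of 14 of 14 H/ACA members, against 10.9% of 21838 windows of 138 bases and 47.6% of the annotated snoRNA and scaRNA transcripts. These boxes define the classes, so their presence describes the annotation and is no check on the counts. The C box letters of Snord118 and Snord16a were not in this window. ACA also lay in the last 8 bases of 2 of 10 C/D members, and the D box letters were found in 1 of 14 H/ACA members.

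Snora73a (chr4:132352775-132352979, minus strand) and Snora73b (chr4:132352322-132352526, minus strand) are shown because they were the most abundant H/ACA members and are near-identical copies, 96.6% identical by edit distance.
Snora73a: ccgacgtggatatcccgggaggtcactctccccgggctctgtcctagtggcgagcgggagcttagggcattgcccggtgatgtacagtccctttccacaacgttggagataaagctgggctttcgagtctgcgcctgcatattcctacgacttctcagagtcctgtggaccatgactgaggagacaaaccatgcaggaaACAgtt
Snora73b: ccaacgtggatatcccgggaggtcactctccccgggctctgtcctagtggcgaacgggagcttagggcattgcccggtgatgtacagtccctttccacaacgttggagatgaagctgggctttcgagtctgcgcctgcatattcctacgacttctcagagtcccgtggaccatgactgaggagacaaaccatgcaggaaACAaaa

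Reads that match both copies could have been split between them or dropped, so their single values are uncertain. An annotated snoRNA at least 90% identical exists for 8 of the 30 short members, namely Snora16a, Snora30, Snora43, Snora57, Snora68, Snora73a, Snora73b and Snord118. Scarna13 (chr12:105031075-105031349, minus strand), which differed little between library numbers, is the last sequence shown and has no capitals because no box was searched in it.
Scarna13: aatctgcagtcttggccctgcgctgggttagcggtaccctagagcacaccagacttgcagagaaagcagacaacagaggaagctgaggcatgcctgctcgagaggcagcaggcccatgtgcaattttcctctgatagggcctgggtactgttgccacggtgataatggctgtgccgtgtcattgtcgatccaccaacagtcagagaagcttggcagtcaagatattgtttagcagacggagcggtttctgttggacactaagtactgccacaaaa

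The lowest library total was 5725358 counts (Tfh T53) and the highest 13360563 (non-Tfh T32), so a single count corresponded to between 0.0748 and 0.175 CPM, the unit of counts put on a common library size. The T32 libraries were the deeper of each group, and the non-Tfh libraries were the deeper at each number. Levels below are CPM after trimmed mean of M-values (TMM) scaling. Where 4 values follow each other without names, their order is Tfh T32, Tfh T53, non-Tfh T32, non-Tfh T53, and pairs within a group are T32, then T53. The 39 members held 12775, 3263, 17884 and 6665 counts, which is 0.103%, 0.0570%, 0.134% and 0.0772% of each library. The sort label held, since Cxcr5, Pdcd1, Bcl6 and Il21 were each called higher in Tfh and summed T cell markers lay between 2351 and 2683 CPM in all 4 libraries. The B cell list summed to 145 and 140.4 CPM in Tfh and 11.3 and 17.8 CPM in non-Tfh libraries. Nearly all of it was Cd22 and Pax5, while Cd79a, Cd79b and Ms4a1 were at most 1.49 CPM in any library.

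In the main edgeR fit, with the group alone in the model, no member was called changed between Tfh and non-Tfh cells. Every tested member had a fitted level on the lower side in Tfh in that fit. By edgeR's quasi-likelihood test, 0 of 28 tested members passed an adjusted p of 0.05, against 8.49% of the 11702 genes tested. DESeq2 and limma-voom also called 0, against 4.07% and 3.34% of genes called lower. With no count filter 1 of 39 was called lower, Snhg17, against 5.45%. At an unadjusted p under 0.05 there were 6, against 22% of all tested genes: Scarna13, Snhg17, Snora43, Snhg3, Snora24 and Snhg9. The fitted log2 fold change (Tfh over non-Tfh) was below 0 for 28 of 28, against 50.7% of tested genes, with a median of -0.51 against -0.01 over all genes. Members were chosen with such values known and share libraries, so these counts are descriptions. Below 0 were 26 of 28 members with limma-voom and 37 of 39 with DESeq2. The median moved with the library left out: it was -0.04 without non-Tfh T32 (24 members tested) and -1.37 without Tfh T32 (30 members tested). Members below 0 were 13 of 24 without non-Tfh T32 and 25 of 32 without Tfh T53. They were 30 of 30 without Tfh T32 and 32 of 32 without non-Tfh T53. Such a fit sets libraries of different numbers against each other, so a group difference and a number difference are mixed in it. The other 11 members had too few counts for the fit. In sorted bulk populations, fewer cells of a type and less RNA per cell cannot be told apart.

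**Figure D1:**
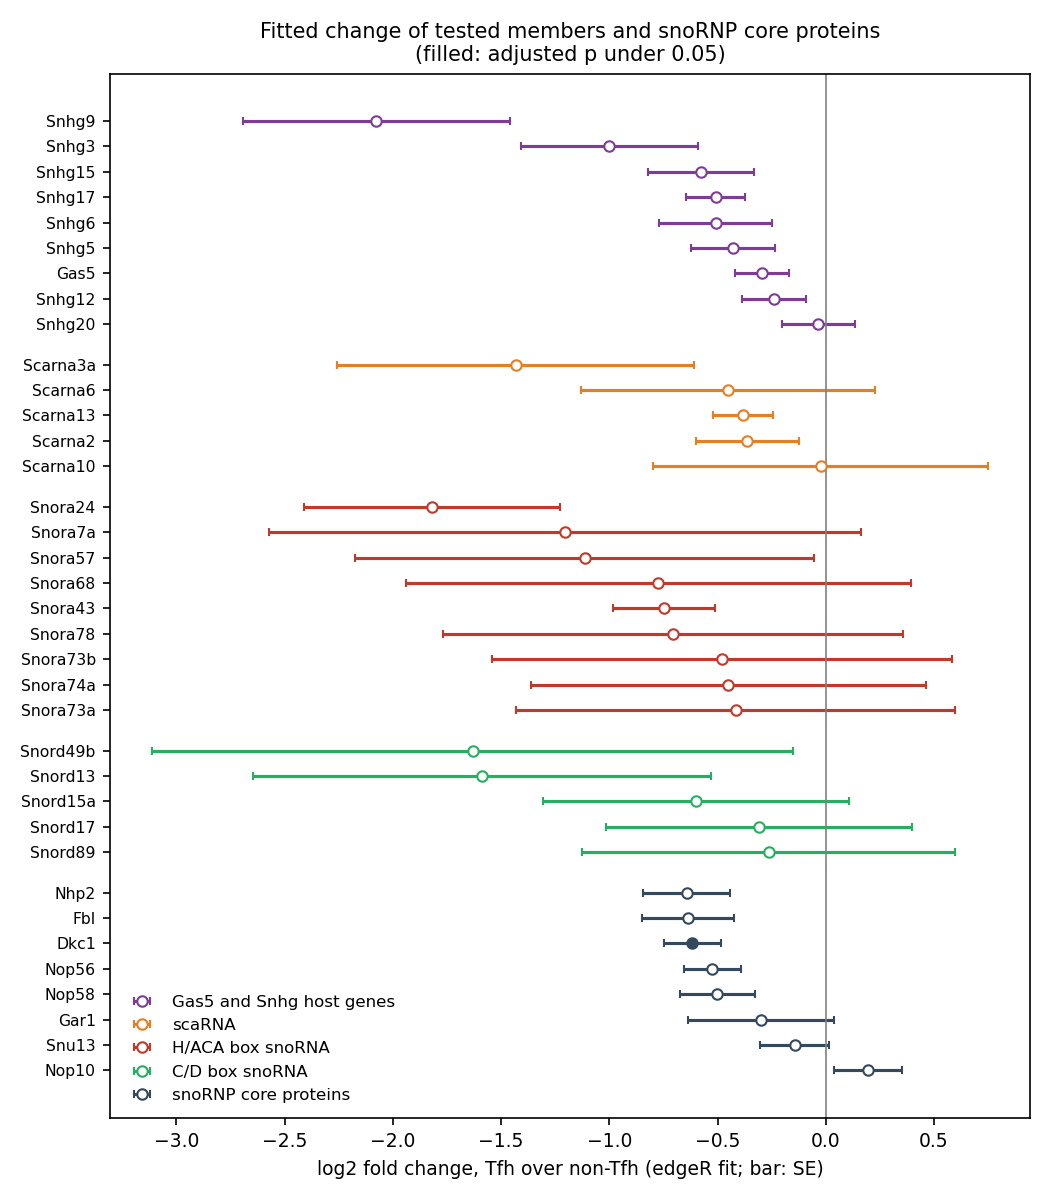
Fitted log2 fold change, Tfh over non-Tfh, from edgeR on the x axis for each tested member and each snoRNP core protein gene, with bars for the SE and filled points for an adjusted p under 0.05. All 28 tested members lie below 0 and none is filled, with narrow bars for host genes such as Gas5 (0.123) and wide bars for short RNAs such as Snora7a (1.37), and Dkc1 is the one filled point.

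Host genes were the most even of the 4 classes. Gas5 (ENSMUSG00000053332, chr1:161034422-161038539, plus strand), the non-coding growth arrest-specific host of several C/D box snoRNAs, stood at 153.8 and 139.0 CPM in the Tfh libraries T32 and T53 and at 189.6 and 169.7 CPM in the non-Tfh libraries. Both Tfh libraries were below both non-Tfh libraries, by 1.23-fold at T32 and 1.22-fold at T53. The fitted log2 fold change was -0.29 ± 0.123 (SE, n = 2 per group) with an edgeR adjusted p of 0.23. Snhg17 (ENSMUSG00000085385, chr2:158353700-158361580, minus strand) measured 23.9 and 23.2 CPM in Tfh and 32.6 and 34.6 CPM in non-Tfh libraries. Its groups lay farther apart than its replicates, and its log2 fold change of -0.51 ± 0.137 had an adjusted p of 0.0772, the lowest of any member.

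Snhg12, which hosts H/ACA box snoRNAs, measured 18.9 and 19.7 CPM in Tfh and 22.9 and 22.7 CPM in non-Tfh cells. Snhg5 stood at 16.3 and 17.6 CPM in Tfh and 25.9 and 19.4 CPM in non-Tfh cells. Snhg6 was at 9.47 and 6.64 CPM against 13.1 and 10.1 CPM. None of these groups overlapped, with fitted log2 fold changes of -0.24, -0.43 and -0.51 and edgeR adjusted p of 0.425, 0.268 and 0.33. Snhg15 measured 7.21 and 5.76 CPM in Tfh and 8.86 and 10.8 CPM in non-Tfh cells. Snhg3, which hosts both Snora73 genes, was lowest in Tfh T53 at 2.62 CPM and Tfh T32 at 3.35 CPM, against 4.05 and 7.97 CPM in non-Tfh T53 and T32. Its log2 fold change of -1.0 ± 0.409 had an adjusted p of 0.221. Snhg9 had 3 and 1 counts in Tfh and 13 and 9 counts in non-Tfh libraries.

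Snhg20 was the exception in size, at 14.5 CPM in both Tfh libraries and 14.5 and 15.2 CPM in non-Tfh T32 and T53, with a log2 fold change of -0.03 and an adjusted p of 0.942. The groups of all 9 host genes did not overlap, with Tfh lower, which 25.6% of tested genes showed too. With mitochondrially encoded genes and the 10 most abundant genes left out of the scaling, this held for 8 of 9, because Snhg20 then turned at T32. Adding up the class gave 248 and 229 CPM in Tfh and 316 and 288 CPM in non-Tfh cells, 1.28-fold apart at T32 and 1.25-fold at T53.

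Scarna10 and Scarna2 were the most abundant members per length. Per kilobase of exon, the mean level of Scarna10 was 547 CPM and that of Scarna2 was 458 CPM, followed by Snora73a at 329, Scarna13 at 300.3 and Snora73b at 293 CPM. Scarna6 (20.7), Scarna3a (12.6) and Scarna3b (2.01) lay below Gas5 at 43.4 CPM. Scarna10 (ENSMUSG00000089617, chr6:125186359-125186683, minus strand) stood at 261 CPM in Tfh T32 and 283 CPM in non-Tfh T32, but at 90.8 CPM in Tfh T53 and 75.9 CPM in non-Tfh T53. The library numbers were far apart and the groups were not, so its fitted log2 fold change was -0.02 ± 0.773 with an adjusted p of 0.991. Scarna2 (ENSMUSG00000088185, chr3:108554338-108554751, minus strand), which guides changes in spliceosomal RNA, measured 205 and 125 CPM in Tfh and 229.6 and 197 CPM in non-Tfh cells. Its groups overlapped, with a log2 fold change of -0.36 and an adjusted p of 0.46.

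Scarna13 separated by group and little by number. It was at 79.3 and 63.9 CPM in Tfh T32 and T53 and at 91.4 and 95.8 CPM in non-Tfh T32 and T53. Its log2 fold change was -0.38 ± 0.139 with an edgeR adjusted p of 0.172. Scarna6 stood at 6.37 and 2.79 CPM in Tfh and 9.98 and 2.81 CPM in non-Tfh cells, so the groups were 1.01-fold apart at T53. Scarna3a had 17 and 2 counts in Tfh and 57 and 9 counts in non-Tfh libraries, and Scarna3b had 14 in all. The class summed to 554 and 283 CPM in Tfh and 619 and 373 CPM in non-Tfh cells.

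H/ACA box snoRNAs followed the library number more than the group. Snora73a, which is needed for processing of the small-subunit ribosomal RNA, stood at 96.6 CPM in Tfh T32 and 129.7 CPM in non-Tfh T32, and at 17.8 CPM in Tfh T53 and 25.9 CPM in non-Tfh T53. Snora73b gave 85.2, 13.97, 119 and 21.9 CPM. Tfh was lower within each number for both copies, but each T53 library lay far below each T32 library. The log2 fold changes were -0.42 ± 1.01 and -0.48 ± 1.06, with adjusted p of 0.87 and 0.854. These values turned sign when 1 library was left out: Snora73a was at 1.19 without non-Tfh T32.

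Snora7a, whose sequence lies within an annotated exon of Rpl32, measured 9.72 CPM in Tfh T32 and 25.2 CPM in non-Tfh T32. In the T53 libraries it held 6 and 13 counts, or 1.05 and 1.46 CPM. The T32 level was 9.27-fold the T53 level in Tfh and 17.2-fold in non-Tfh cells, the widest folds among members with more than 3 counts in both libraries. Snora74a measured 10.1, 1.92, 13.8 and 3.48 CPM and Snora78, inside Snhg9, 5.61, 0.873, 9.68 and 1.57 CPM. Both were lower in Tfh at each number. Snora43 (ENSMUSG00000097052, chr2:26637847-26637985, minus strand) did not share this spread: it measured 6.62 and 5.24 CPM in Tfh and 10.3 and 9.89 CPM in non-Tfh libraries, with a log2 fold change of -0.75 ± 0.235 and an adjusted p of 0.12. Snora24, with 5 and 1 counts in Tfh and 17 and 10 in non-Tfh libraries, was the other H/ACA member whose groups did not overlap. Snora57 had 12 and 3 counts in Tfh against 42 and 2 in non-Tfh libraries, and Snora68 had 15 and 0 against 29 and 3, so both were high in non-Tfh T32 and near the floor at T53. The untested Snora30 (8 and 0 against 13 and 1), Snora28 (5 and 2 against 8 and 1), Snora23 (3 and 0 against 6 and 2) and Snora16a (1 and 0 against 11 and 0) had too few counts to order the groups. Snora34, with 4 and 2 against 4 and 3 counts, was as even between groups as its depth can show. The class summed to 218 and 42.3 CPM in Tfh and 318 and 66.7 CPM in non-Tfh cells.

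C/D box snoRNAs were the scarcest class in the counts, since 72 of 97 named genes held none. Snord17 (ENSMUSG00000077714, chr2:144265979-144266216, minus strand), inside an intron of Snx5, gave most of the class with 41.1 and 11.7 CPM in Tfh and 48.6 and 18.5 CPM in non-Tfh cells. Snord13, which guides acetylation of small-subunit ribosomal RNA, measured 3.77 CPM in Tfh T32 against 13.6 CPM in non-Tfh T32, and 1.05 against 1.80 CPM at T53. Its log2 fold change of -1.59 ± 1.06 had an adjusted p of 0.486. Tfh was lower at both numbers, and the groups overlapped because non-Tfh T53 was below Tfh T32.

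Counts limited the other C/D members. Snord49b had 12 and 0 counts in Tfh and 48 and 1 counts in non-Tfh libraries, and its neighbour Snord49a had 4 and 0 against 25 and 0. Snord55 had 3 and 0 against 18 and 1, and Snord83b had 1 and 0 against 11 and 1. Non-Tfh T32 held most counts of each of these genes. Snord89 had 13 and 3 counts in Tfh against 23 and 2 in non-Tfh libraries, and Snord16a, the smallest member, had 0 and 2 against 8 and 0. Snord118, which is needed for large-subunit ribosomal RNA processing, had 9 and 1 against 39 and 0. A count of 0 allows up to 3 counts, or 0.524 CPM in Tfh T53 and 0.347 CPM in non-Tfh T53. A member with 0 counts in a T53 library was therefore not detected at that depth and not shown to be absent. Snord15a, inside Rps3, was lower in Tfh at T32 (2.01 against 4.02 CPM) and higher at T53 (1.22 against 0.899 CPM). Without Snord17, the C/D sum was 9.30 and 3.32 CPM in Tfh and 30.5 and 3.26 CPM in non-Tfh libraries, so its group difference came from the T32 libraries.

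**Figure D2:**
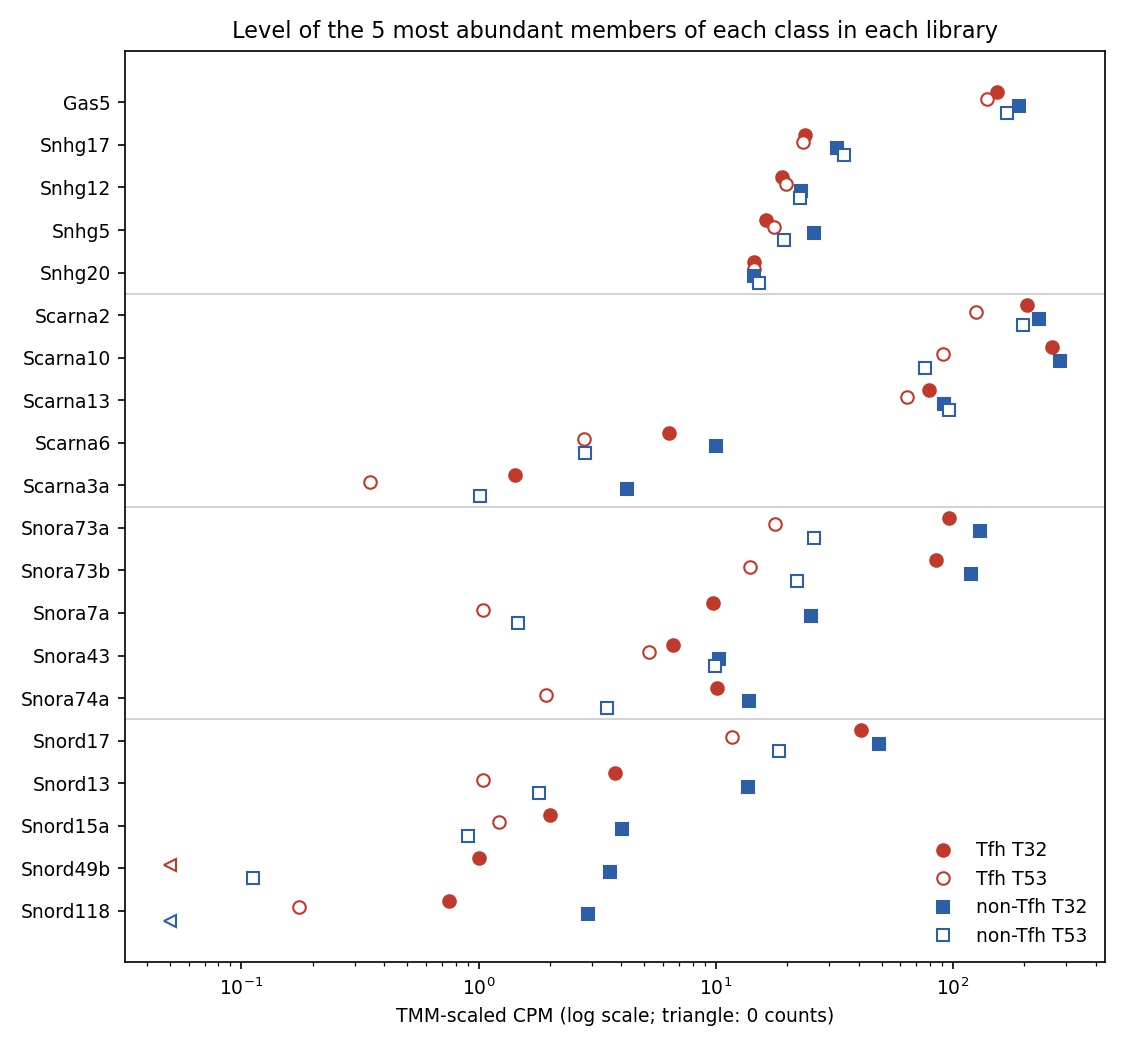
TMM-scaled CPM on a log scale, x axis, for the 5 most abundant members of each class, with 1 point per library and a triangle for 0 counts. Points of host genes such as Gas5 (139.0 to 189.6 CPM) lie close together, while those of Snora7a spread from 1.05 to 25.2 CPM with both T53 libraries at the low end.

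**Figure D3:**
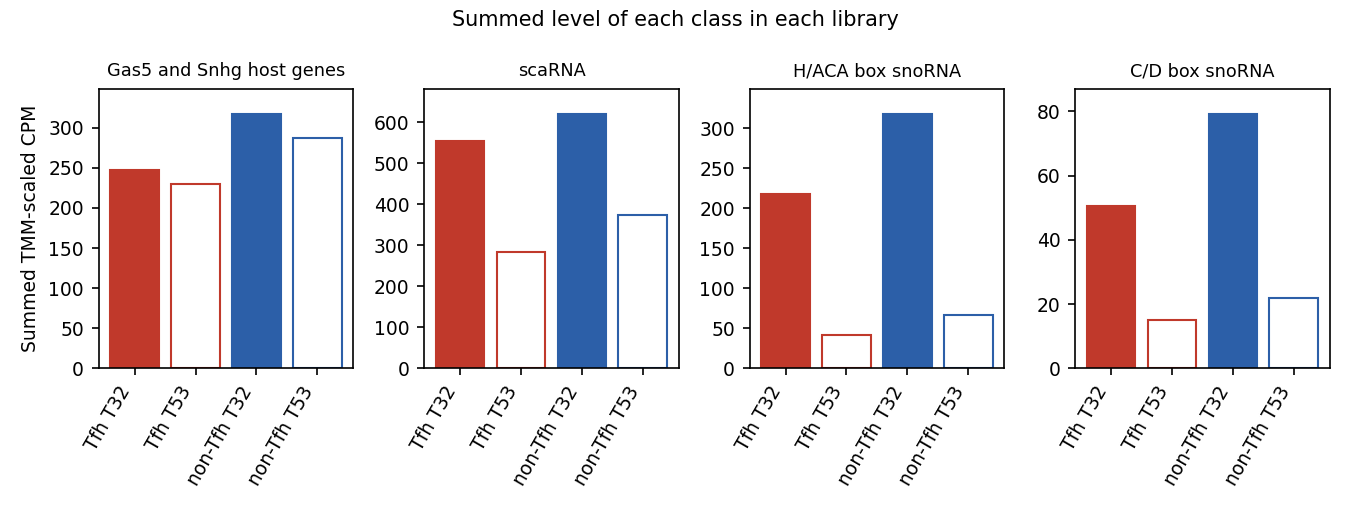
Summed TMM-scaled CPM of each class, 1 bar per library, on axes from 0 that differ between panels. H/ACA sums are 218 and 318 CPM in the T32 libraries and 42.3 and 66.7 CPM in the T53 libraries, while host sums run from 229 to 316 CPM.

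The split between library numbers was wide in the medians of short members and not in those of host genes. Among short members with more than 3 counts in both libraries of a group, the T32 level was a median of 3.52-fold the T53 level in Tfh (13 members) and 3.95-fold in non-Tfh cells (15 members). Host genes gave 1.07-fold and 1.01-fold, and all tested genes 0.999-fold and 1.0-fold. Short members of up to 250 bases gave 5.28-fold (1.26 to 9.27) in Tfh and 4.47-fold (1.04 to 17.2) in non-Tfh cells. Within that limit the order by length differed between groups: members of 1 to 150 bases gave 3.6-fold in Tfh and 4.47-fold in non-Tfh cells, and those of 151 to 250 bases, Snhg9 among them, 5.35-fold and 3.95-fold. The 4 longer scaRNAs gave 1.96-fold (1.24 to 2.88) and 2.36-fold (0.954 to 3.73).

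The medians of genes outside the member list, which include snoRNA and scaRNA genes under other symbols, were also highest in the shortest length range. These genes are therefore not a set without snoRNAs. Other genes with 1 to 150 exon bases had medians of 2.63-fold in Tfh (16 genes) and 3.38-fold in non-Tfh cells (26 genes). Those of 151 to 250 bases had 1.48-fold and 1.23-fold, and those of 251 to 500 bases 0.976-fold and 0.994-fold. Among long-lived short RNAs of other classes, Rpph1, the RNA of ribonuclease P, was at 2365 and 778 CPM in Tfh T32 and T53 and 2845 and 663 CPM in non-Tfh T32 and T53. The whole list of other short structured RNAs, Rpph1 included, summed to 11255 and 6628 CPM in Tfh and 10562 and 4640 CPM in non-Tfh libraries. That sum was higher in Tfh at both numbers. By edgeR, though, 6 of the 9 tested genes of the list were below 0, with a median log2 fold change of -0.34. Of all tested genes, 50.7% were below 0. Library number moved with depth here, so the numbers and depth cannot be told apart, and their part in the short members' values was not tested. Group moved with depth too, since Tfh was the shallower library at T32 (12354113 against 13360563 counts) and at T53 (5725358 against 8636056). Group and depth cannot be told apart either.

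**Figure D4:**
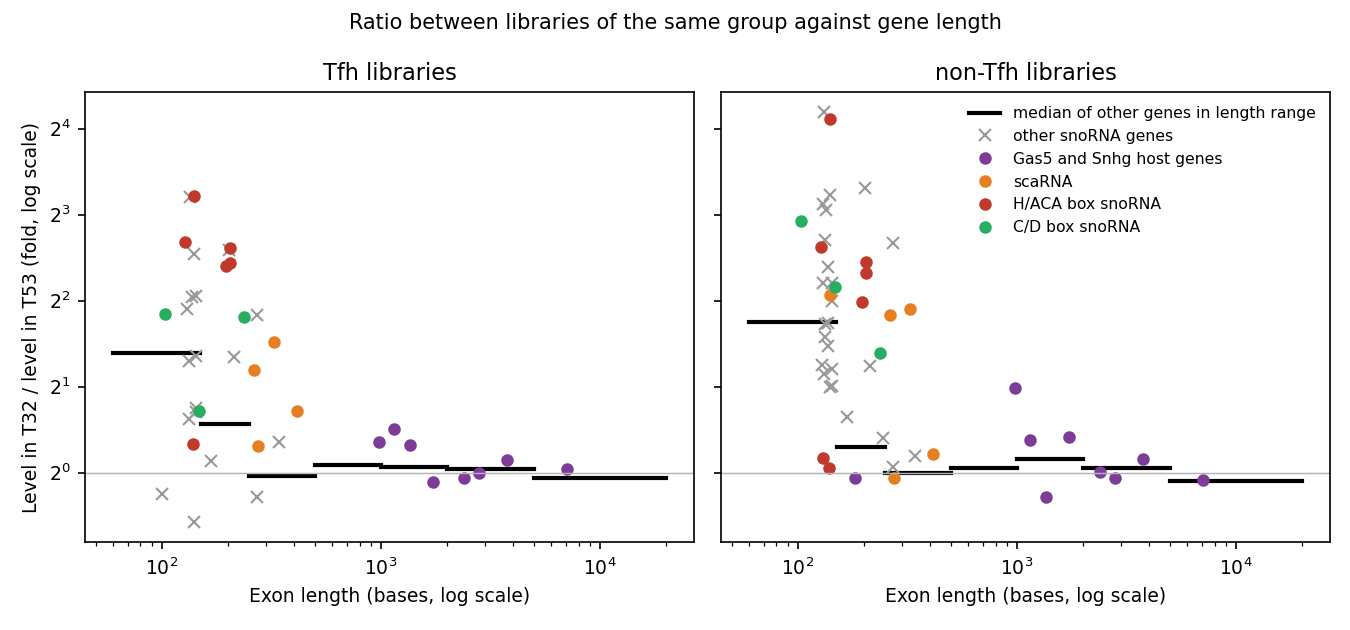
Ratio of the T32 to the T53 level within each group (y axis, log scale) against exon length in bases (x axis, log scale), with members as points coloured by class, other snoRNA genes as crosses and the median of other genes in each length range as a black line. The black lines include the other snoRNA genes. Short members of up to 250 bases reach 9.27-fold in Tfh and 17.2-fold in non-Tfh cells, while host genes stay between 0.821-fold and 1.97-fold.

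Within a library number the Tfh level was the lower for most members. With more than 3 counts required in every library, 19 of 21 members were lower in Tfh at both T32 and T53, against 35.2% of 11517 genes. The exceptions were Scarna10 and Snord15a, both higher in Tfh at T53. The median non-Tfh level was 1.36-fold the Tfh level at T32 and 1.5-fold at T53, and all genes gave 1.0-fold and 0.994-fold. Over all 39 members, Tfh was lower at T32 for 38 and at T53 for 29. At both numbers it was lower for 29, against 35.8% of genes with at least 10 counts. In 13 of the 39 the groups did not overlap, with Tfh lower, against 25.2% of those genes. The Tfh library was the shallower at each number, so group and depth cannot be told apart in these comparisons.

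**Figure D5:**
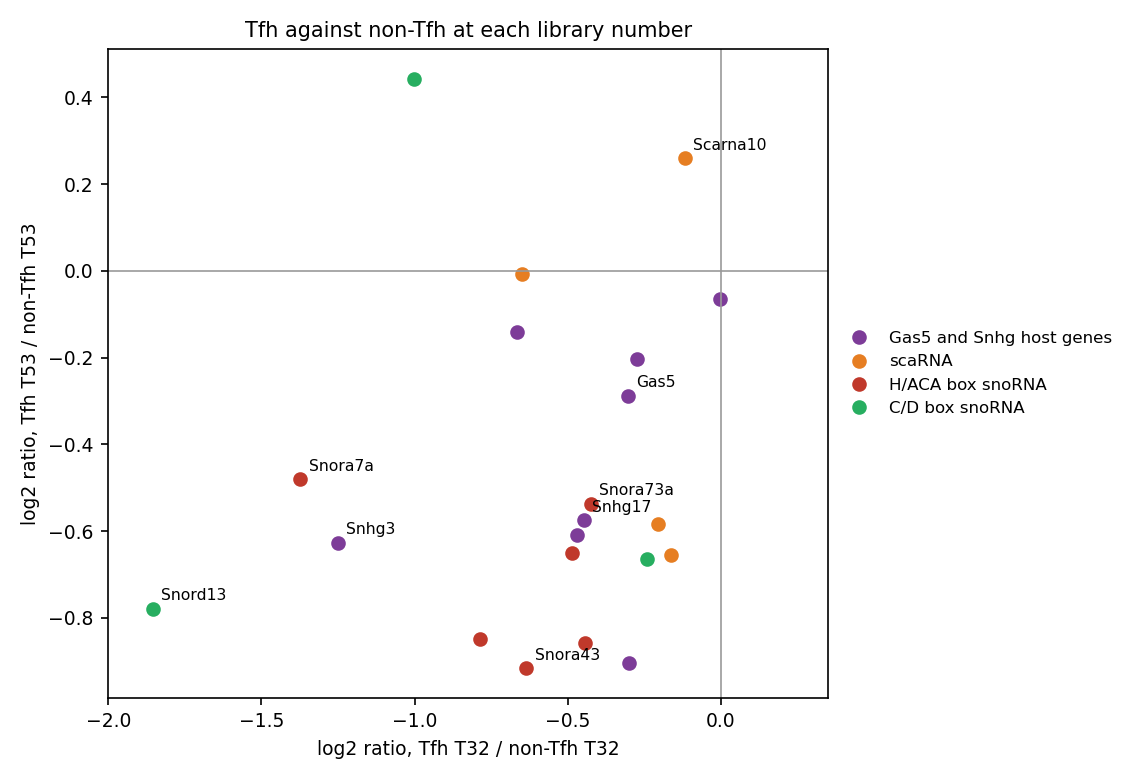
Log2 ratio of Tfh to non-Tfh at T32 (x axis) and at T53 (y axis) for the 21 members with more than 3 counts in every library. Scarna10 and Snord15a are the points above 0 at T53, and 19 members lie below 0 on both axes.

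Host transcripts varied less between library numbers than the snoRNAs inside them. Rpl32, the ribosomal protein gene around Snora7a, measured 371 and 276 CPM in Tfh and 459 and 356 CPM in non-Tfh cells, with a log2 fold change of -0.33 and an edgeR adjusted p of 0.402. Its T32 and T53 values were far closer together than those of Snora7a. Per length, the ratio of Snora7a to Rpl32 was 0.180 and 0.0261 in Tfh T32 and T53 and 0.377 and 0.0282 in non-Tfh T32 and T53. Ncapd2, the condensin subunit gene around Scarna10, was on the higher side in Tfh, at 102 and 113 CPM against 98.6 and 63.3 CPM, with an adjusted p of 0.356. Rcc1, which shares the Snora73 genes with Snhg3, stood at 16.5 and 19.2 CPM in Tfh and 28.5 and 16.9 CPM in non-Tfh cells.

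Of 18 counted host genes that are not members, 14 had a fitted value below 0, against 50.7% of all tested genes, and 0 were called by edgeR, against 8.49%. Their median log2 fold change was -0.22. An unadjusted p under 0.05 was reached by 2, against 22% of all genes: Rpl4 on the lower side (-0.43) and Gm15832 on the higher side in Tfh (0.85). Rps3, around Snord15a, measured 558 and 422 CPM in Tfh and 702 and 594 CPM in non-Tfh cells, without overlap. 2410006H16Rik, around both Snord49 genes, measured 18.3 and 15.2 CPM against 27.3 and 17.9 CPM. Snx5, around Snord17, had a log2 fold change of -0.02. Cop1 and Atg16l1, around Scarna3a and Scarna6, had -0.14 and -0.17. Over the 14 pairs of a tested snoRNA or scaRNA and a tested host, the fitted log2 fold change of the host was nearer to 0 than that of its guest in 9 and farther in 5. The 5 were Snora73a and Snora73b in Snhg3, Snora78 in Snhg9, Scarna10 in Ncapd2 and Snord89 in Gm15832, and the last 2 of these had opposite signs in host and guest. The Snora73 genes lay on the other side against their second host, Rcc1 (-0.36).

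Gas5 counts came without counts for its guests. All 9 Gas5 snoRNA genes in the files, 60 to 84 bases long, had 0 counts in every library, and all 9 lie wholly or partly in an exon of some annotated Gas5 transcript. Of 91 named short genes with 0 counts, 43, or 47.3%, lay wholly or partly in an exon of a longer gene in the files. Of 30 short members, 7, or 23.3%, did so, among them Scarna10 with 8115 counts, Snora73a with 3226 and Snora7a with 473. Of the 91, another 28 lay only in introns and 20 outside such genes. Host genes absent from the files were not considered. The median length was 90 bases for the 91 genes and 138.5 bases for the 30 members. Counting programs can leave a read that fits several genes unassigned, and the overlap setting is not given in the sources used here. A count of 0 for these genes is therefore no measure of their RNA, and its cause was not tested. Gas5 and Zbtb37, Snhg6 and Mcmdc2, Snhg3 and Gm17300, Snora57 and Lbhd1, and Rps2 with Snhg9 and Snora78 overlap on opposite strands, and reads of such partners cannot be told apart where counting ignored strand.

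Annotated snoRNAs under other symbols gave values in the range of the members. Of 1378 such genes in the files, 40 had at least 10 counts, with medians of 2.49-fold and 3.31-fold between T32 and T53. By edgeR, 25 of 27 tested had a fitted value below 0, 0 were called and 1 had an unadjusted p under 0.05, against 50.7%, 8.49% and 22% of all tested genes, with a median log2 fold change of -0.61. Rnu3a, the U3 snoRNA that organises early cutting of the ribosomal RNA precursor, measured 170.1 and 67.2 CPM in Tfh and 325 and 138 CPM in non-Tfh libraries. Non-Tfh was 1.91-fold higher at T32 and 2.05-fold at T53, with a fitted log2 fold change of -0.95 ± 0.595 and an adjusted p of 0.455.

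Among the proteins that bind snoRNAs, the H/ACA pseudouridine synthase gene Dkc1 (dyskerin) fell in Tfh cells. It measured 38.6 and 40.9 CPM in Tfh and 65.0 and 56.7 CPM in non-Tfh libraries, a log2 fold change of -0.62 ± 0.131 with an edgeR adjusted p of 0.039. Leaving out Tfh T32 ended the call (adjusted p 0.182), as did leaving out Tfh T53 (0.147) and non-Tfh T32 (0.106). It was 1 of 4 core H/ACA genes called, where 4.02% of all tested genes were called lower. Nhp2 had -0.64 (adjusted p 0.117), Gar1 -0.30 (0.687) and Nop10 0.20 (0.549). Of the 4 core C/D genes 0 were called, and all 4 were below 0, as were 50.7% of all tested genes: Fbl, the methyltransferase fibrillarin, at -0.64 (0.14), Nop56 at -0.52 (0.0621), Nop58 at -0.50 (0.15) and Snu13 at -0.14 (0.682).

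Other lists of the pathway held 1 call or none each, where 4.02% of all tested genes were called lower. Of 20 tested genes of the U3 processome, which assembles on the ribosomal RNA precursor, Wdr43 was called lower, at 86.1 and 72.1 CPM in Tfh and 123 and 113 CPM in non-Tfh cells (log2 fold change -0.57, adjusted p 0.0497). That call was lost without any 1 of the 4 libraries, with adjusted p from 0.053 to 0.308, and also with limma-voom (0.0608) and a filter of 5 CPM (0.0541). Of the 20, 18 were below 0, against 50.7% of all genes, with a median of -0.23. Of 15 tested genes of RNA polymerase I and Myc, Polr1b, a polymerase subunit, fell from 38.6 and 37.0 CPM in non-Tfh to 23.0 and 21.5 CPM in Tfh cells, at -0.76 ± 0.137 with an adjusted p of 0.023. Its adjusted p was 0.087 without Tfh T32, 0.146 without Tfh T53 and 0.0543 without non-Tfh T32. No gene was called among 14 of snoRNP assembly (median log2 fold change -0.09), 17 of snoRNA trimming and turnover (-0.12) or 11 of nonsense-mediated decay (-0.06).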

How the data were processed

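Total RNA of 4 sorted T cell samples was sequenced in read pairs with a stranded kit, per the labels' protocols. The deposited values are raw whole-number counts for Ensembl gene identifiers. The submitters' processing notes name TopHat2, Bowtie2, HTSeq and GRCm38 (mm10). Versions, annotation release, strand setting and overlap mode are not given in the sources used here. Symbols, lengths and positions came from GENCODE M21, which matched 37607 of 39179 identifiers.

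Tfh and non-Tfh libraries were compared in R 4.3.3 with edgeR 4.0.16 (filterByExpr with the group, TMM scaling, robust quasi-likelihood fit on the group alone, two-sided, Benjamini-Hochberg over all 11702 genes tested, threshold 0.05), with 2 residual degrees of freedom. Each SE is the size of the log2 fold change divided by the root of the test's F. Folds between single libraries need more than 3 counts in both, and the limit set by a count of 0 is 3 counts, covering counting error only. Replicates differed beyond sampling noise. Alternatives were RLE scaling, DESeq2 1.42.0, limma-voom (limma 3.58.1), 2 count filters, a block for the library number, other scalings of the sums and each library left out. On simulated data the fit recovered 22%, 66%, 90% and 100% of 50 genes each changed 1.5-fold, 2-fold, 4-fold and 8-fold among 11527. Of 145 calls, 6 were false. These percentages are for all kinds of genes together. Recovery at an SE as wide as that of Snora73a (1.01), Snora7a (1.37) or Snord49b (1.48) was not tested. Descriptions used Python 3.11.15, pandas 2.3.3, numpy 2.4.6 and matplotlib 3.10.9.

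The members and lists were chosen with earlier results of these data known. Named genes were called members, the 5 most abundant members of each class, their hosts and counted guests, the snoRNP core proteins and up to 4 called genes of each other list. Other genes, among them Snora24, Snhg20, Snhg6, Snhg15, Snhg3, Snhg9, Scarna3b, Snord49a, Snora78, Rnu3a and Rpph1, were named after their values were seen. Cell type marker lists covered T, Tfh, B, macrophage, dendritic, granulocyte, stromal, endothelial and erythroid cells; granulocyte, erythroid and stromal sums were at most 1.12 CPM, macrophage at most 3.77, dendritic at most 6.74, and the endothelial sum of 211 to 236 CPM was Pecam1. The list of other short structured RNAs had 0 of 9 tested genes called. The symbols Bcd1, Papd5 and Skiv2l2 matched no identifier. A marker gene and a sequence are not reported here.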

Additional observations from a re-analysis of the deposited data

How the results depend on the processing

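With main values of 0 members called and a median log2 fold change of -0.51, the count of members called higher in Tfh was 0 under every alternative. The count called lower was 0 with RLE scaling, DESeq2, limma-voom, a filter of 5 CPM and each library left out. It was 1 with no count filter (Snhg17, adjusted p 0.0407). The median was -0.52 with RLE scaling, -0.63 with DESeq2, -0.46 with limma-voom, -0.61 with no count filter and -0.43 with 5 CPM in 2 libraries, and ran from -1.37 to -0.044 with 1 library left out, where the lone library of a group is assumed to vary like the other group.

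With the library number as a replicate block, 8 members were called lower, against 8.98% of genes tested, and the median was -0.55. They were Gas5, Scarna3a, Snhg17, Snora73a, Snora73b, Snora7a, Snord13 and Snord49b, with adjusted p from 0.0141 to 0.0475. Over all genes the block gave 1069 higher and 1051 lower calls, against 523 and 471 without it, and no count filter gave 1006 and 980. Libraries of the same number deviated together (r = 0.37 over 11702 genes), but there are 2 pairs and no label says what the number marks.

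Scarna10 turned to 0.078 with limma-voom and 0.052 with the replicate block. With a library left out, log2 fold changes ran from -0.99 to 1.23 for Scarna10, -2.13 to 1.19 for Snora73a, -2.35 to 1.23 for Snora73b, -1.53 to 0.56 for Snord17, -2.18 to 0.89 for Snora74a, -3.68 to 1.99 for Snora7a, -1.22 to 0.77 for Scarna6, -2.90 to 0.53 for Snord13 and -1.25 to 0.89 for Snord15a. The positive values came without non-Tfh T32 and, for Scarna10, Snora73a, Snora73b, Snord17 and Snora74a, also without Tfh T53 (0.55, 0.31, 0.27, 0.29 and 0.22). Each such fit sets libraries of different numbers against each other.

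The log2 ratio of summed host levels moved from -0.34 to -0.39 without TMM scaling and to -0.41 without Gas5. It moved from -0.56 to -0.65 for H/ACA without Snora73a and from -0.62 to -1.42 for C/D without Snord17. For these shifts the cause was not tested. The 5725358 counts of Tfh T53 limit what can be said of C/D members.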
